A study of Drosophila melanogaster with 18 samples.

Results

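The mature neuron genes described here are 10 genes of Drosophila melanogaster that neurons use once they have stopped dividing: elav, fne, Syt1, brp, Cha, VGlut, futsch, para, cac and Rdl. They were chosen by symbol for their known roles, not for a measured value, and make up 10 of the 16727 genes in each count table. Their RNA was measured by RNA-seq in BG3 cells, a cultured line that comes from the central nervous system of larvae. The study compared 4 groups of 3 libraries each: WT cells and cells treated with double-stranded RNA against BEAF-32, against both Cp190 and Chro, or against both BEAF-32 and Dref. The BEAF-32 knockdown has the name BEAF-32 RNAi in figures and library names, the Cp190 Chro double knockdown is named Cp190 RNAi Chro RNAi there, and the BEAF-32 Dref double knockdown is BEAF-32 RNAi Dref RNAi. Knockdown cells received 50 µg of dsRNA and were harvested 72 h later, and no control dsRNA is named for WT. All groups share the same cell line, and nothing in the labels says whether replicates were grown apart, so p-values measure only the spread between these libraries. In bulk RNA, fewer cells of a type and less RNA per cell cannot be told apart.

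Neurons differ from their dividing precursors in RNA processing, electrical excitability and the release of transmitter. ELAV family proteins bind RNA in neurons and steer alternative splicing and polyadenylation, and elav is the standard marker of a neuron that has left the cell cycle. Voltage-gated sodium and calcium channels carry the action potential to the axon terminal, where vesicles filled with transmitter fuse at active zones. BEAF-32, Cp190 and Chro are insulator or architectural proteins found at borders of topologically associating domains (TADs), and Dref is a transcription factor whose DNA motif resembles that of BEAF-32.

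In WT BG3 cells, elav and cac were the most abundant of these genes, futsch and para were low, and the other genes were nearly silent. In all 3 knockdowns futsch rose and cac fell. The gene elav rose in both double knockdowns, and Cha, which had 0 reads in WT, was called higher in the BEAF-32 knockdown. That call rests on 14 reads, and Cha passed the minimum of 10 reads for testing only through that group. The genes Syt1, brp, fne, VGlut and Rdl stayed at a few reads per library in every group.

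Of the 10 genes, elav, futsch and Cha were those called higher against WT. The 250 bases before the outermost annotated start site of each are shown because the motif CGATA, bound by BEAF-32, can be looked for in them. The annotation has 2 start sites for elav, 3 for futsch and 1 for Cha, and only the outermost was searched. The sequences come from RefSeq Release 6 (dm6), run 5′ to 3′ on the strand of the gene, and have every match to CGATA on either strand in capitals. They lie at chrX:523227-523476 on the minus strand for elav, at chrX:1408819-1409068 on the plus strand for futsch and at chr3R:18705251-18705500 on the plus strand for Cha.
elav: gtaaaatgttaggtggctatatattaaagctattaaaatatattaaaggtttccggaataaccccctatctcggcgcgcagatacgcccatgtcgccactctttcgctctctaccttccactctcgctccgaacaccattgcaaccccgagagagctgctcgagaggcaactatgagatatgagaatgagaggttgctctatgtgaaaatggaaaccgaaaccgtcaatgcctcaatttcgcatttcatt
futsch: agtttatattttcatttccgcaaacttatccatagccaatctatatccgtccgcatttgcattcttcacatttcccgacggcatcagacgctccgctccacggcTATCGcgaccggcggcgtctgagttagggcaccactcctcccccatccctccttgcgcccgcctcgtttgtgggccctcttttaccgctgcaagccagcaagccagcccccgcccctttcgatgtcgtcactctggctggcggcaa
Cha: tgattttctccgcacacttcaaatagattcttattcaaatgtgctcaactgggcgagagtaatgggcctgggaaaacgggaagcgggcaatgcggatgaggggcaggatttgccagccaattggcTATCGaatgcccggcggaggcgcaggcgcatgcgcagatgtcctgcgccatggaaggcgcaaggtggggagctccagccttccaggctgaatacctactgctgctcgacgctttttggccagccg

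Each of futsch and Cha holds 1 match, read here as its reverse complement TATCG, which begins at position -146 from the start site of futsch and at -125 from that of Cha. These were the only matches in the 250 bases before the outermost start sites of the 10 genes. So 2 of 10 windows held the motif, against 42.54% of the windows of the same length before 13968 protein coding genes. The longer motif TATCGATA, which contains CGATA and is bound by Dref, was searched on both strands and was in 0 of the 10 windows and in 7.99% of all. A match of letters is a description of the sequence and was not tested as a binding site.

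Depth was 7178403 to 12202598 counts over genes per library. BEAF-32 RNAi replicate 3 stood apart. Its log2 counts correlated across genes with those of the other BEAF-32 knockdown libraries at 0.9581 and 0.9584, where the other 10 pairs within groups gave 0.9939 to 0.9965. It had the lowest total and the largest share of reads without a unique alignment (29.5%, against 16.0 to 25.8% elsewhere). Both values are given where leaving it out changes a call or moves a value by over 1.5 times. This holds for the 10 genes and the named genes of the wider neuronal lists. Counts over lists and values of cell type markers use all libraries unless stated, and many of these counts change without it. The RNAi targets were lower in their own knockdowns: BEAF-32 had 41 to 74.8 CPM in the BEAF-32 knockdown and 51 to 59.4 CPM in the BEAF-32 Dref double knockdown against 88.6 to 92.7 CPM in WT. Cp190 and Chro had 287 to 315 and 187 to 205 CPM in the Cp190 Chro double knockdown against 423 to 436 and 318 to 338 CPM in WT, and Dref had 128 to 134 CPM in the BEAF-32 Dref double knockdown against 203 to 211 CPM. Targets not addressed by a knockdown were lower in it too: all 4 were called lower in the BEAF-32 knockdown and the BEAF-32 Dref double knockdown, and 3 of 4 in the Cp190 Chro double knockdown.

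Levels of different genes are compared as CPM per kb of merged exons, where CPM is the count over the library's total, scaled by TMM. The order in WT was cac, elav, futsch, para, Syt1, brp, fne and VGlut, with Cha and Rdl at 0 reads. The gene cac had 8.40, 8.30 and 7.73 CPM per kb and elav 7.34, 7.36 and 7.01, which put them at percentiles 62.5 and 61.6 of 16508 genes with a known length. The median gene had 0.411 CPM per kb in WT, so cac and elav lay above it and the other 8 genes below it. This median and these percentiles include 5545 genes with 0 reads in all WT libraries, so they would be less high among detected genes.

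**Figure D1:**
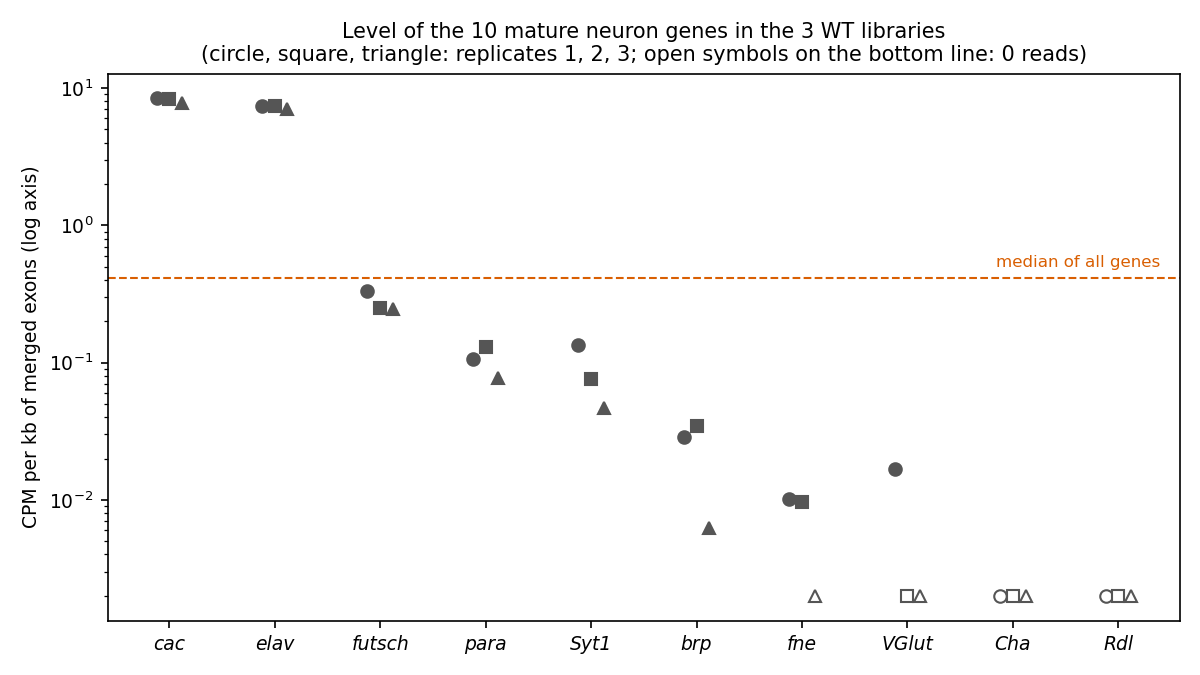
Level of each of the 10 genes in the 3 WT libraries, in CPM per kb of merged exons on a log axis, with open symbols on the bottom line for libraries with 0 reads and a dashed line at the median of all genes. The genes cac and elav sit above the median of 0.411, and futsch at 0.276 on average sits just below it.

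futsch followed with 0.334, 0.248 and 0.247 CPM per kb, para with 0.106, 0.129 and 0.0768, and Syt1 with 0.134, 0.0765 and 0.0465. Neighbours in this order did not overlap between cac and elav, elav and futsch, futsch and para, and Syt1 and brp, but para and Syt1 overlapped, and so did brp, fne and VGlut. The order depends on the length used. Per kb of coding length elav was at 53.5 and cac at 13.4, since only 1449 of the 10715 exon bases of elav are coding, and Syt1 at 0.423 stood above futsch at 0.391. Per kb of the longest transcript the order was that of merged exons.

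The marker genes of cell types in WT were mixed. Of 9 neuron markers, 4 of which are among the 10 genes, 3 reached 1 CPM in WT: elav, Syx1A, a syntaxin of vesicle fusion, and Appl, the fly relative of the amyloid precursor protein. The neuronal repressor gene scrt had 0 reads in WT. Of 12 glia markers, 8 reached 1 CPM, with repo, the transcription factor that defines glia, at 60.3 ± 2.19 CPM (SD, n = 3), while gcm, alrm and Mdr65 were at 0. The blood cell factor gene srp was at 804 ± 15.8 CPM (SD, n = 3), with 5 of 9 hemocyte markers over 1 CPM and He and lz at 0. Of the 10 genes, elav and cac were thus expressed beside markers of other cell types. Syt1, brp, fne, Cha, VGlut and Rdl were under 1 CPM in every WT library.

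The RNA binding protein gene elav lies on chromosome X from 509235 to 523226 on the minus strand. It had 78.6, 78.8 and 75.2 CPM in the WT libraries and 73.6, 83.2 and 111 CPM in the BEAF-32 knockdown, so these groups overlapped. In the Cp190 Chro double knockdown it had 96.2, 111 and 114 CPM, and in the BEAF-32 Dref double knockdown 109.7, 103 and 108 CPM, all above WT. The mean rose from 77.5 ± 2.07 CPM (SD, n = 3) in WT to 107 ± 9.6 in the Cp190 Chro double knockdown (1.38-fold, log2 0.47 ± 0.13 SE, adjusted p = 0.0169) and to 107 ± 3.34 in the BEAF-32 Dref double knockdown (1.38-fold, log2 0.46 ± 0.13, adjusted p = 0.0138). In the BEAF-32 knockdown the change was log2 0.20 ± 0.13 with an adjusted p of 0.244, and without replicate 3 it was 0.02 with an adjusted p of 0.858.

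The call of elav in the Cp190 Chro double knockdown depended on single libraries. It was lost without WT replicate 3 (adjusted p = 0.0607), without Cp190 RNAi Chro RNAi replicate 2 (0.057) and without replicate 3 of that knockdown (0.0642), with log2 changes of 0.44, 0.44 and 0.42. Without BEAF-32 RNAi replicate 3, whose 111 CPM is the highest of its group, the adjusted p was 6.54e-09 at a log2 change of 0.46. With only WT and Cp190 Chro double knockdown libraries in the fit it was 9.23e-08.

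The exons of elav overlap other genes. The arginase gene arg, on the opposite strand, shares 673 bases or 6.28% of them, and lncRNA:enrr, on the same strand, shares 2994 bases or 27.94% and has no row in the count tables. The level of arg moved with elav in part: it was 28, 26.8 and 29.8 CPM in WT, 47.8, 52.3 and 59.5 in the Cp190 Chro double knockdown, and 41.7, 35.4 and 34.9 in the BEAF-32 Dref double knockdown. It rose in the Cp190 Chro double knockdown (log2 0.92 ± 0.16, adjusted p = 0.00121), fell in the BEAF-32 knockdown (log2 -0.78 ± 0.16, adjusted p = 0.00399) and had a log2 change of 0.41 ± 0.16 in the BEAF-32 Dref double knockdown (adjusted p = 0.0569, and 0.000361 without BEAF-32 RNAi replicate 3). The part of reads from these genes in the change of elav was not tested, since no source used here states the strandedness of the libraries.

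The futsch product, the fly relative of the microtubule-associated protein MAP1B, stabilises microtubules in axons and terminals. Its gene lies on chromosome X from 1409069 to 1453686 on the plus strand and spans 23.31 kb of merged exons. WT libraries held 81, 63 and 69 reads, or 7.80, 5.78 and 5.76 CPM. BEAF-32 knockdown libraries held 26.7, 18.7 and 11.9 CPM, Cp190 Chro double knockdown libraries 18.5, 15.7 and 16.2 CPM, and BEAF-32 Dref double knockdown libraries 15.2, 16.1 and 14.4 CPM. Every knockdown library was above every WT library, and the lowest knockdown library was BEAF-32 RNAi replicate 3. The mean of 6.44 ± 1.17 CPM (SD, n = 3) in WT rose 2.99-fold in the BEAF-32 knockdown (log2 1.58 ± 0.25, adjusted p = 0.000695), 2.61-fold in the Cp190 Chro double knockdown (log2 1.39 ± 0.25, adjusted p = 0.00156) and 2.36-fold in the BEAF-32 Dref double knockdown (log2 1.24 ± 0.25, adjusted p = 0.00245). Without BEAF-32 RNAi replicate 3 the log2 change in the BEAF-32 knockdown was 1.82 (adjusted p = 6.14e-15). The taste receptor gene Gr2a shares 1186 bases of exon with futsch on the same strand, which is 5.09% of the futsch exons.

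**Figure D2:**
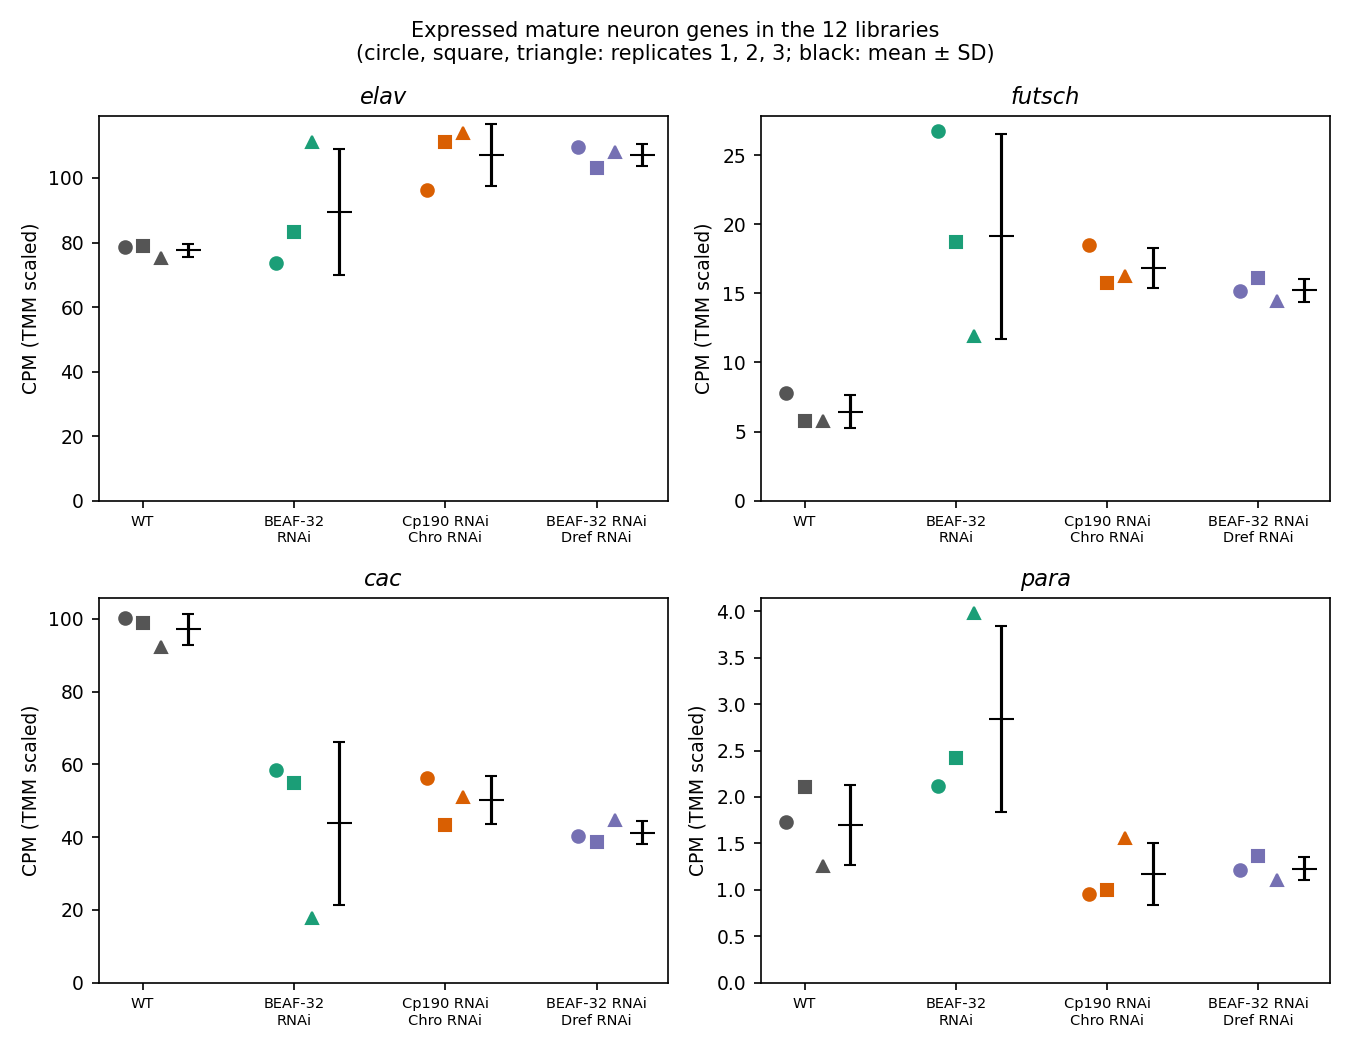
CPM scaled by TMM in each of the 12 libraries for the 4 genes of at least 1 CPM on average, elav, futsch, cac and para, on linear axes from 0, with coloured symbols for replicates and black bars for the mean ± SD of 3 libraries. Knockdown libraries lie above WT for futsch and below it for cac. BEAF-32 RNAi replicate 3 is the highest of its group for elav and para and the lowest for futsch and cac.

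The gene cac encodes the pore subunit of the voltage-gated calcium channel that opens at active zones to trigger transmitter release. It lies on chromosome X from 11931280 to 11985087 on the minus strand and shares no exon bases with another gene. It had 100.2, 98.9 and 92.2 CPM in WT, 58.5, 54.9 and 17.9 CPM in the BEAF-32 knockdown, 56.2, 43.3 and 51.1 CPM in the Cp190 Chro double knockdown, and 40.3, 38.8 and 44.8 CPM in the BEAF-32 Dref double knockdown. All 9 knockdown libraries were below the 3 WT libraries, and BEAF-32 RNAi replicate 3, with 126 reads, was far below the rest. Against a WT mean of 97.1 ± 4.3 CPM (SD, n = 3), cac fell to 0.455 of WT in the BEAF-32 knockdown (log2 -1.14 ± 0.30, adjusted p = 0.014), 0.518 in the Cp190 Chro double knockdown (log2 -0.95 ± 0.30, adjusted p = 0.0303) and 0.425 in the BEAF-32 Dref double knockdown (log2 -1.23 ± 0.30, adjusted p = 0.00772).

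The spread of BEAF-32 RNAi replicate 3 entered the shared error of all of these tests. Without that library cac changed by log2 -0.78 in the BEAF-32 knockdown (adjusted p = 1.12e-11), -0.95 in the Cp190 Chro double knockdown (2.1e-17) and -1.24 in the BEAF-32 Dref double knockdown (9.88e-22). With the library kept, the call in the Cp190 Chro double knockdown was lost when any 1 of 6 libraries was left out: WT replicates 1, 2 and 3 (adjusted p = 0.0782, 0.076 and 0.0641) and Cp190 RNAi Chro RNAi replicates 1, 2 and 3 (0.0589, 0.103 and 0.0779). In a fit of the BEAF-32 knockdown and WT libraries alone, the log2 change of -1.14 in the BEAF-32 knockdown had an adjusted p of 0.101.

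The gene para encodes the voltage-gated sodium channel of action potentials and lies on chromosome X from 16455027 to 16533096 on the minus strand. It had 1.73, 2.11 and 1.25 CPM in WT, from 15 to 23 reads, and 2.12, 2.42 and 3.98 CPM in the BEAF-32 knockdown. It had 0.959, 1.00 and 1.56 CPM in the Cp190 Chro double knockdown and 1.21, 1.36 and 1.11 CPM in the BEAF-32 Dref double knockdown, both of which overlapped WT. BEAF-32 knockdown libraries were just above the WT libraries, and no comparison with WT passed the test, with log2 changes of 0.73 ± 0.35 (adjusted p = 0.125), -0.52 ± 0.36 (0.288) and -0.46 ± 0.37 (0.337) in the BEAF-32 knockdown, the Cp190 Chro double knockdown and the BEAF-32 Dref double knockdown.

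The choline acetyltransferase gene Cha, called ChAT in the current annotation, makes acetylcholine, the main excitatory transmitter of the fly brain. It lies on chromosome 3R from 18705501 to 18732344. WT libraries held 0 reads of it, BEAF-32 knockdown libraries 5, 4 and 5, Cp190 Chro double knockdown libraries 0, 4 and 1, and BEAF-32 Dref double knockdown libraries 2, 1 and 0. Every BEAF-32 knockdown library was thus above WT, and both double knockdowns had a library at 0 as in WT. For WT, 3 counts over the group, or 0.0902 CPM, was taken as the floor. The 14 reads of the BEAF-32 knockdown (exact 95% Poisson interval 7.65 to 23.5 reads) gave a level 5.8 times that floor. This ratio uses the observed reads, not the lower end of their interval, so it is not a lower limit. edgeR called the gene higher in the BEAF-32 knockdown (adjusted p = 0.0181). Of its 22 reads over the 12 libraries, 14 were in that group. It thus passed the minimum of 10 reads only through the group where it was high. The 5 reads of the Cp190 Chro double knockdown were 1.65 times the floor (exact 95% Poisson interval 1.62 to 11.7 reads) and had an adjusted p of 0.105. For the BEAF-32 Dref double knockdown, with 3 reads, the adjusted p was 0.147. The vesicular acetylcholine transporter gene VAChT shares 606 bases of exon with Cha, or 15.11%, on the same strand.

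Syt1, brp, fne, VGlut and Rdl stayed near the limit of detection. Syt1, the calcium sensor of vesicle fusion, lies on chromosome 2L from 2772327 to 2799979 and had 10, 6 and 4 reads in WT, 4, 4 and 7 in the BEAF-32 knockdown, 4, 5 and 9 in the Cp190 Chro double knockdown and 5, 3 and 7 in the BEAF-32 Dref double knockdown. The groups overlapped throughout, and the log2 changes of -0.07, -0.19 and -0.14 had adjusted p-values of 0.941, 0.816 and 0.87. The 95% intervals of these changes ran from -1.33 to 1.19, from -1.43 to 1.05 and from -1.40 to 1.13, so sizeable changes in either direction were not detectable at this depth.

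brp, which builds the active zone scaffold, lies on chromosome 2R from 9503765 to 9541565 and had 4, 5 and 1 reads in WT and 5, 7 and 4 in the BEAF-32 knockdown. It had 4, 6 and 6 reads in the Cp190 Chro double knockdown and 4, 1 and 0 in the BEAF-32 Dref double knockdown. In CPM, BEAF-32 knockdown libraries did not overlap with WT (0.53 to 0.678 against 0.0835 to 0.458 CPM), but the change of log2 0.94 ± 0.74 had an adjusted p of 0.346. In the double knockdowns the adjusted p-values were 0.533 and 0.537.

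fne, a second ELAV family gene of neurons, lies on chromosome X from 12917477 to 12950417. It had 0 or 1 reads in each WT and BEAF-32 knockdown library, 3, 1 and 1 in the Cp190 Chro double knockdown and 2, 1 and 1 in the BEAF-32 Dref double knockdown, with adjusted p-values of 0.78, 0.407 and 0.41 in the BEAF-32 knockdown, the Cp190 Chro double knockdown and the BEAF-32 Dref double knockdown. VGlut, the transporter that loads glutamate into vesicles of motor neurons, lies on chromosome 2L from 2400295 to 2410662, and Rdl, a GABA receptor subunit, lies on chromosome 3L from 9145838 to 9182149. Each had 5 reads over the 12 libraries, under the minimum of 10 for the test. The reads of VGlut fell as single reads in 5 libraries of all 4 groups, and those of Rdl were 2 in BEAF-32 RNAi replicate 2 and 3 in BEAF-32 RNAi Dref RNAi replicate 3.

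**Figure D3:**
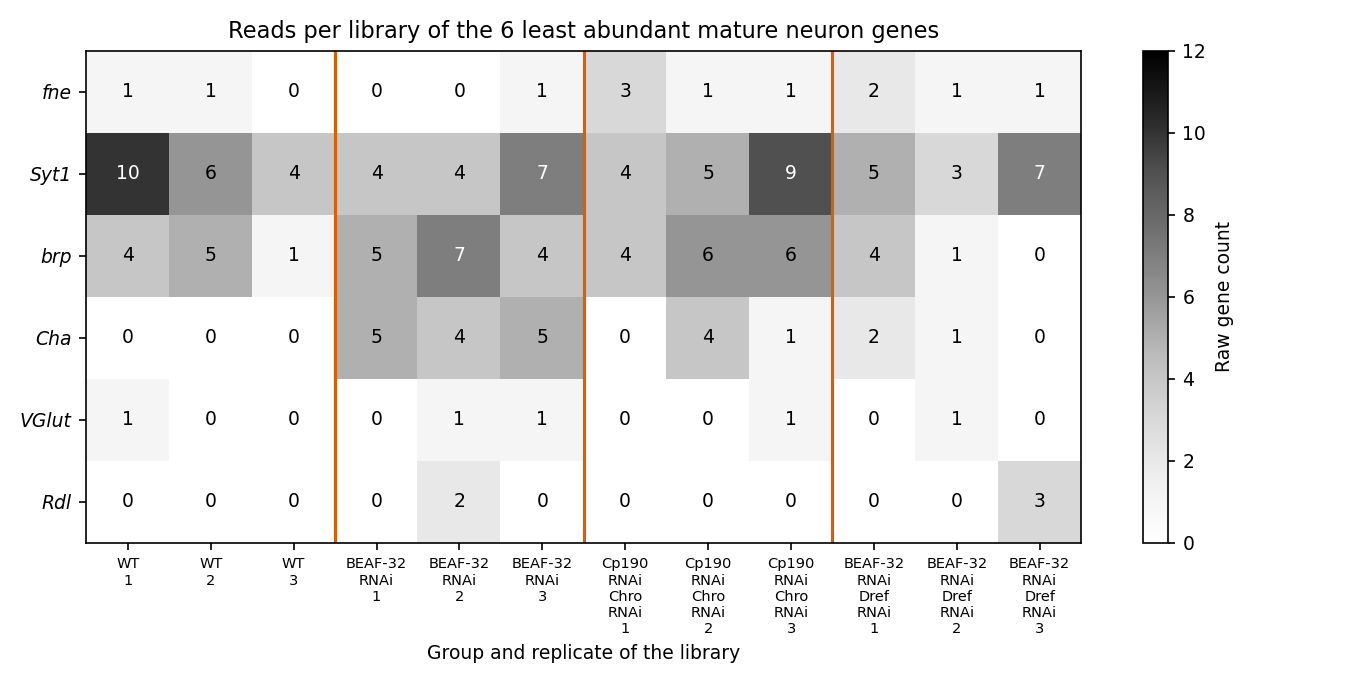
Raw gene counts of the 6 least abundant genes in each library, with the count written in each cell and shaded from 0 to 12, and vertical lines between the groups. The row of Cha reads 0, 0, 0 in WT and 5, 4, 5 in the BEAF-32 knockdown, and no other row separates a knockdown from WT as clearly.

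Of the 10 genes, 8 passed the minimum of 10 reads and were tested. In the BEAF-32 knockdown 2 of 8 were called higher, Cha and futsch, against 18.5% of all 10545 genes tested, and 1 was called lower, cac, against 15.7%. Cha was among the 8 only through its reads in that knockdown. In the Cp190 Chro double knockdown 2 were higher, elav and futsch, against 17.9% of all genes, and 1 was lower, cac, against 15.6%. In the BEAF-32 Dref double knockdown the same 3 genes were called, 2 higher and 1 lower, against 21.5% and 20.3%. With 8 genes these shares are near those over all genes in each direction. The median log2 change of the 8 genes was 0.47 in the BEAF-32 knockdown, 0.55 in the Cp190 Chro double knockdown and 0.16 in the BEAF-32 Dref double knockdown, against 0.07, 0.02 and 0.03 over all genes. With Cha set against the floor of 3 counts in place of its fitted value, the medians were 0.47, 0.55 and -0.07, so the sign in the BEAF-32 Dref double knockdown depends on that gene.

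**Figure D4:**
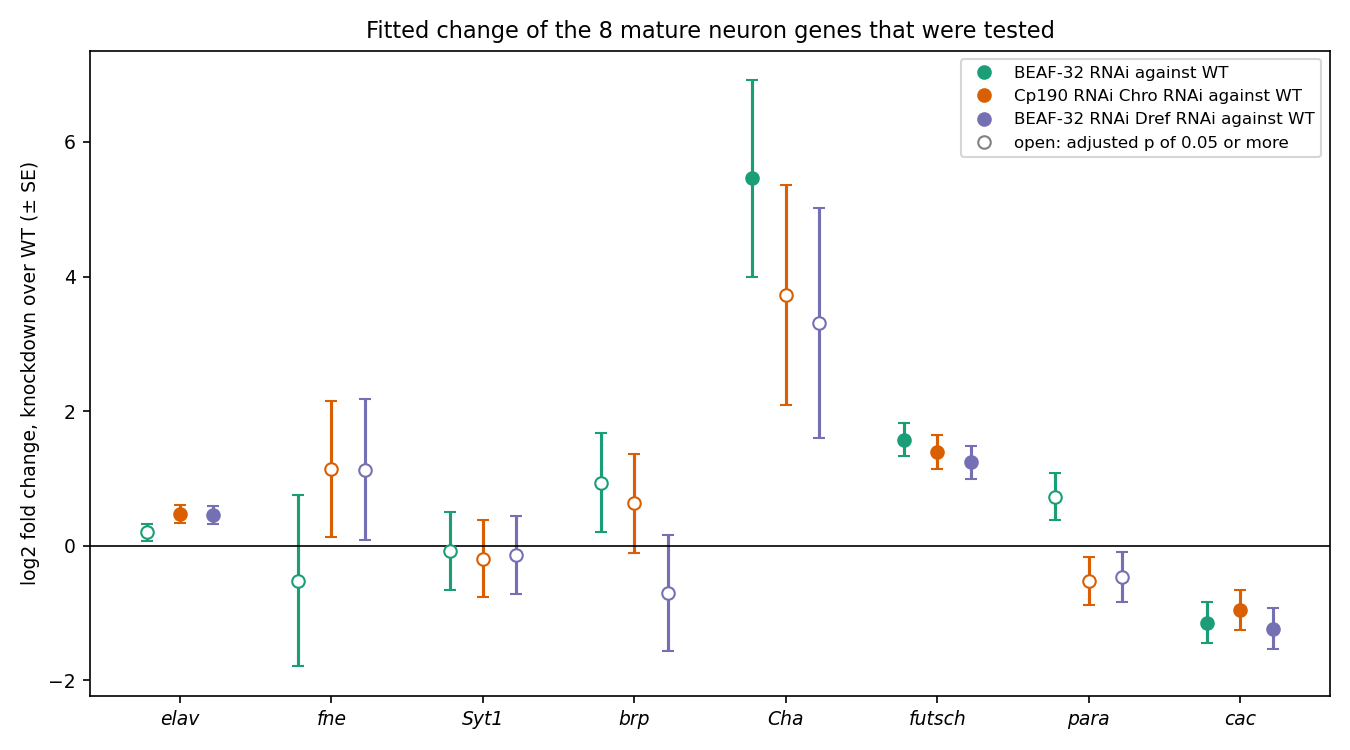
Fitted log2 fold change of each of the 8 tested genes in the 3 knockdowns against WT, with bars of ± 1 standard error and open symbols where the adjusted p was 0.05 or more. futsch lies above 0 and cac below 0 in all 3, elav is filled in both double knockdowns at log2 0.47 and 0.46, and the values of Cha depend on how 0 reads in WT are fitted.

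The knockdowns were also compared with each other. None of the 8 genes passed edgeR's test between the BEAF-32 Dref double knockdown and the BEAF-32 knockdown, where 3.03% of all genes were higher and 2.70% lower, nor between the Cp190 Chro double knockdown and the BEAF-32 knockdown, with 3.65% and 3.25%. None passed between both double knockdowns either, where 0% of all genes were called in each direction (405 genes at an unadjusted p under 0.05, and 6 called by DESeq2). At an unadjusted p under 0.05, 1, 1 and 0 of the 8 genes passed in these comparisons, and DESeq2 called 0, 1 and 0. The smallest adjusted p-values were those of para, at log2 -1.19 (95% interval -1.99 to -0.39, adjusted p = 0.0786) in the BEAF-32 Dref double knockdown and -1.25 (-2.03 to -0.46, adjusted p = 0.0602) in the Cp190 Chro double knockdown against the BEAF-32 knockdown, and DESeq2 gave an adjusted p of 0.0287 for the latter.

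BEAF-32 RNAi replicate 3 decided these comparisons for the more abundant genes. With all libraries elav differed by log2 0.26 between each double knockdown and the BEAF-32 knockdown (95% intervals -0.02 to 0.55 and -0.02 to 0.54, adjusted p = 0.255 for the Cp190 Chro double knockdown and 0.263 for the BEAF-32 Dref double knockdown). Without that library the difference was 0.44 in both cases (adjusted p = 1.05e-06 and 1.25e-06). futsch was then lower than in the BEAF-32 knockdown by log2 -0.43 in the Cp190 Chro double knockdown (adjusted p = 0.0152) and by -0.58 in the BEAF-32 Dref double knockdown (0.00119), where with it the values were -0.19 (0.682) and -0.34 (0.443). cac was then lower in the BEAF-32 Dref double knockdown than in the BEAF-32 knockdown (log2 -0.46, adjusted p = 2.8e-05) and than in the Cp190 Chro double knockdown (log2 -0.29, adjusted p = 0.0128), and with it these were -0.10 (0.898) and -0.28 (0.958).

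Other genes of neurons were counted in 12 lists of general knowledge, from which the 10 genes were left out. Of their 222 genes, 174 were tested. In the BEAF-32 knockdown 38 were higher (21.8%) and 28 lower (16.1%), in the Cp190 Chro double knockdown 43 (24.7%) and 24 (13.8%), and in the BEAF-32 Dref double knockdown 44 (25.3%) and 32 (18.4%). Over all genes tested, 18.5%, 17.9% and 21.5% were higher and 15.7%, 15.6% and 20.3% lower in the same order. Their median log2 changes were 0.22, 0.29 and 0.35, also with genes that had a group at 0 set against the same floor.

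Values of each knockdown are given from here on in the order BEAF-32, Cp190 Chro and BEAF-32 Dref. In fits that left out each of the 12 libraries in turn, an alternative chosen after seeing the data, 83 of the 105 calls of named genes from the lists and of arg held in every fit, and the other 22 are given beside the gene. Of 26 tested genes of vesicle release and recycling, 7, 13 and 13 were higher (26.9%, 50% and 50%, against 18.5%, 17.9% and 21.5% of all genes) and 2, 1 and 1 lower (7.69%, 3.85% and 3.85%, against 15.7%, 15.6% and 20.3%). Without BEAF-32 RNAi replicate 3 the counts were 9, 16 and 14 higher and 4 lower in each knockdown. Over all 10395 genes tested in that fit, 2415, 3034 and 3199 were higher and 2381, 2947 and 3149 lower. Rop, the fly Munc18 that binds syntaxin, rose from 169 CPM in WT to 202, 267 and 268 CPM (adjusted p = 0.0286, 0.000128 and 1e-04). unc-13, which primes vesicles for fusion, rose from 1440.2 to 1955, 2652 and 2711 CPM (adjusted p = 0.0337, 0.000926 and 0.000588). Complexin, the clamp of fusion encoded by cpx, fell in the BEAF-32 knockdown (44.7 to 30.3 CPM, adjusted p = 0.000997) and rose in the Cp190 Chro double knockdown (53.8 CPM, adjusted p = 0.039), and Syt7 fell in the Cp190 Chro double knockdown (10.1 to 4.49 CPM, adjusted p = 0.0116). The calls of Rop and unc-13 in the BEAF-32 knockdown were lost without any 1 of the WT libraries (adjusted p up to 0.101 and 0.1), and the call of cpx in the Cp190 Chro double knockdown was lost in 8 of 12 fits without 1 library (up to 0.144). Syt7, in the fit without BEAF-32 RNAi replicate 3, was called lower in the BEAF-32 knockdown (log2 -0.51, adjusted p = 0.0411) and the BEAF-32 Dref double knockdown (log2 -0.74, adjusted p = 0.000753) too. All 4 of these genes were more abundant than Syt1, which stayed under 1 CPM in every library.

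**Figure D5:**
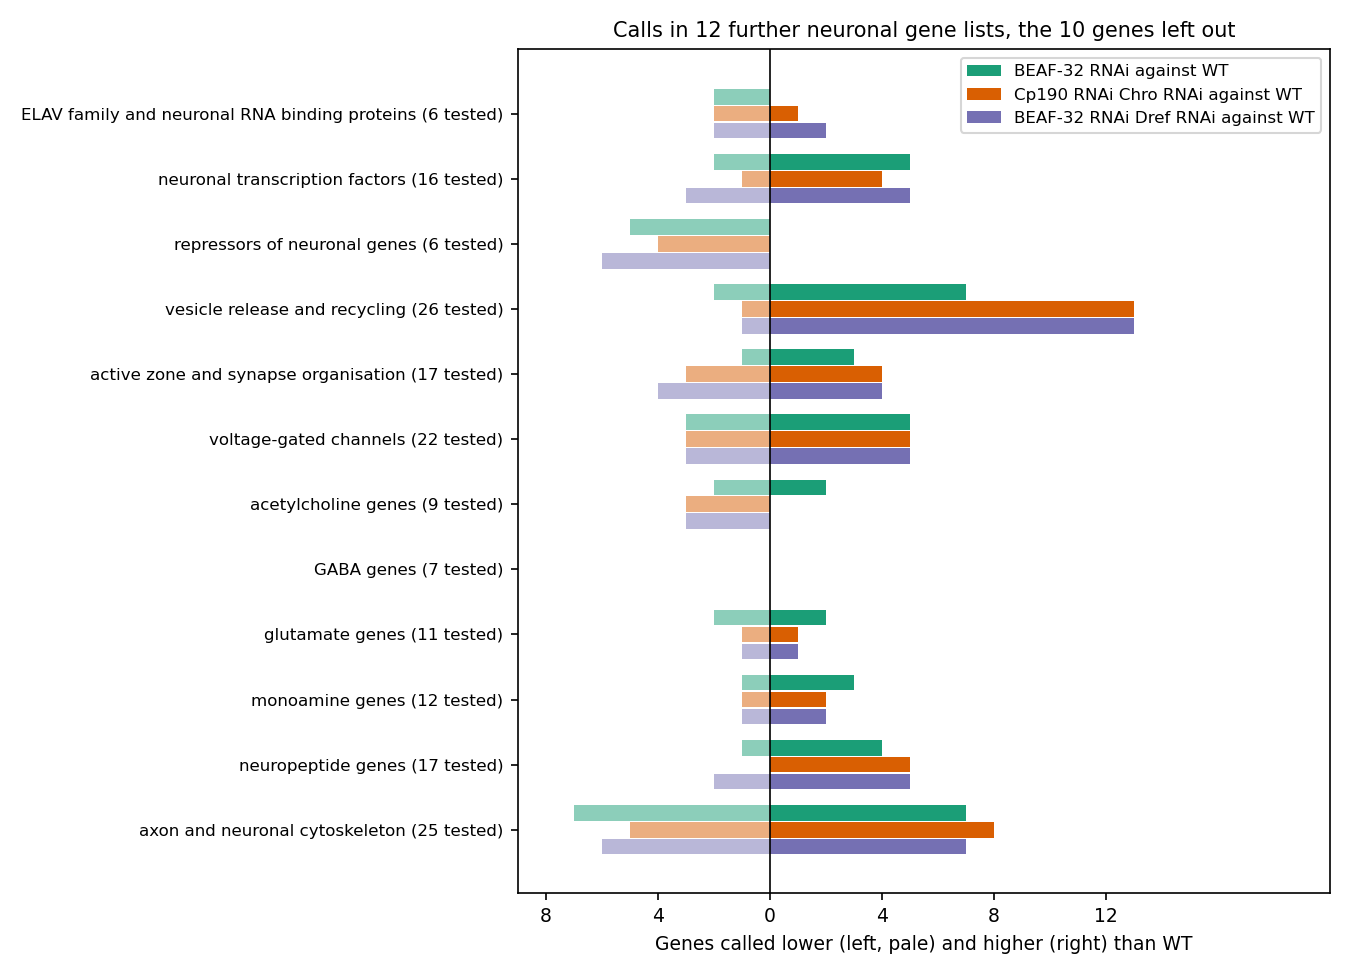
Number of genes called higher than WT (right) and lower (left, pale) in each of 12 neuronal gene lists, with the 3 knockdowns in colour and the number tested in parentheses, the 10 genes being left out. Vesicle release has 13 of 26 genes higher in each double knockdown, repressors have calls to the left, and GABA genes have none.

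The list of repressors of neuronal genes moved down: 5, 4 and 6 of 6 tested genes were called lower, against 15.7%, 15.6% and 20.3% of all genes. ttk, which encodes a repressor of neuronal fate, fell from 435 CPM in WT to 309.7, 301 and 308 CPM (adjusted p = 0.00209, 0.00129 and 0.00149), and chn, a zinc finger gene, from 239 to 150.4, 153 and 145 CPM (adjusted p = 0.000603, 0.000773 and 0.000308). Of 16 tested transcription factors, 5, 4 and 5 were higher (31.2%, 25% and 31.2%, against 18.5%, 17.9% and 21.5% of all genes) and 2, 1 and 3 lower (12.5%, 6.25% and 18.8%, against 15.7%, 15.6% and 20.3%). The homeodomain gene pros, which ends neuroblast divisions, rose from 2.08 to 11, 7.67 and 8.78 CPM (adjusted p = 0.000107, 0.000544 and 0.000228), and hth rose from 301 to 367, 449 and 462 CPM. zfh2 fell from 55.9 to 11.3, 7.47 and 5.49 CPM, and ct from 314 to 214 CPM in the BEAF-32 knockdown and 270.1 CPM in the BEAF-32 Dref double knockdown, where its call was lost in 5 of 12 fits without 1 library (adjusted p up to 0.0799). The gene ct, in the fit without BEAF-32 RNAi replicate 3, was called lower in the Cp190 Chro double knockdown too (log2 -0.18, adjusted p = 0.000823).

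Among 6 tested genes of the ELAV family and other neuronal RNA binding proteins, Rbp9, the third ELAV family gene, rose from 5.39 CPM to 11.7 in the Cp190 Chro double knockdown (log2 1.12 ± 0.38, adjusted p = 0.0414) and 14.4 in the BEAF-32 Dref double knockdown (log2 1.41 ± 0.38, adjusted p = 0.0124), the same knockdowns in which elav was called. The call in the Cp190 Chro double knockdown was lost in 9 of 12 fits without 1 library (adjusted p up to 0.131). BEAF-32 knockdown libraries had 5.73, 4.553 and 15.78 CPM of Rbp9, so the mean of 8.69 CPM (log2 0.66, adjusted p = 0.212) rested on replicate 3. Without it the mean was 5.14 CPM (log2 -0.07, adjusted p = 0.845). bru-3 rose in the BEAF-32 Dref double knockdown, from 0.116 to 0.583 CPM (adjusted p = 0.0437), a call lost in 7 of 12 fits without 1 library (up to 0.137). Syp fell from 1116 to 574, 631 and 603 CPM, and the splicing factor gene mbl from 48.6 to 33.8, 33.3 and 30 CPM, in all 3 knockdowns (adjusted p of 0.02 or less). Without WT replicate 1 the call of mbl was lost in the BEAF-32 knockdown (adjusted p = 0.0724) and the Cp190 Chro double knockdown (0.0606), and in the latter also without Cp190 RNAi Chro RNAi replicate 3 (0.0505).

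The list of voltage-gated channel genes, which includes partners of the calcium channel gene cac, moved in both directions. Of 22 tested voltage-gated channel genes, each knockdown had 5 called higher (22.7%, against 18.5%, 17.9% and 21.5% of all genes) and 3 called lower (13.6%, against 15.7%, 15.6% and 20.3%). Without BEAF-32 RNAi replicate 3 the counts were 3, 7 and 9 higher and 3 lower in each knockdown. Over all 10395 genes tested in that fit, 2415, 3034 and 3199 were higher and 2381, 2947 and 3149 lower. stj, which encodes the α2δ subunit that brings calcium channels to the membrane, rose from 17 to 29.3, 32.6 and 33.7 CPM (adjusted p = 0.000445, 0.000124 and 7.48e-05). Ca-beta, which encodes the cytoplasmic β subunit, fell from 51.6 to 28, 32.3 and 26.5 CPM (adjusted p = 0.00478, 0.0167 and 0.00222), as did Ca-alpha1T, a T-type channel, from 4.08 to 0.559, 0.775 and 0.627 CPM. unc80, whose product regulates a sodium leak channel, rose from 0.0905 to 3.39, 0.764 and 1.04 CPM. In the Cp190 Chro double knockdown the calls of Ca-beta and unc80 were each lost in 4 of 12 fits without 1 library (adjusted p up to 0.0644 and 0.0675).

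Among genes of the active zone and synapse, srpk79D, a kinase gene needed to keep Brp from clumping in axons, rose from 1.06 to 7.79, 4.53 and 3.52 CPM, and the adhesion gene Dscam1 from 387 to 502, 569.9 and 518 CPM. Fas2, the fly NCAM, fell from 503 to 385, 279 and 270.2 CPM, and CaMKII from 249 to 149 CPM in the Cp190 Chro double knockdown and 159 in the BEAF-32 Dref double knockdown. CaMKII, in the fit without BEAF-32 RNAi replicate 3, was called lower in the BEAF-32 knockdown too (172 CPM, log2 -0.53, adjusted p = 3.53e-11). Of 17 tested genes of this list 3, 4 and 4 were higher (17.6%, 23.5% and 23.5%, against 18.5%, 17.9% and 21.5% of all genes) and 1, 3 and 4 lower (5.88%, 17.6% and 23.5%, against 15.7%, 15.6% and 20.3%). Of 25 tested axon and cytoskeleton genes 7, 8 and 7 were higher (28%, 32% and 28%, against 18.5%, 17.9% and 21.5% of all genes) and 7, 5 and 6 lower (28%, 20% and 24%, against 15.7%, 15.6% and 20.3%). Without BEAF-32 RNAi replicate 3 the counts were 8, 11 and 11 higher and 10, 7 and 9 lower. Over all 10395 genes tested in that fit, 2415, 3034 and 3199 were higher and 2381, 2947 and 3149 lower. The midline guidance genes comm and lea, which encodes Robo2, rose from 51.1 to 218, 179 and 177 CPM and from 74.8 to 169, 201 and 188 CPM, and PlexB, a semaphorin receptor, and Fas1 fell from 440.3 to 184, 169.9 and 177 CPM and from 520.3 to 178, 141 and 132 CPM.

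Of 9 tested acetylcholine genes 2, 0 and 0 were higher (22.2%, 0% and 0%, against 18.5%, 17.9% and 21.5% of all genes) and 2, 3 and 3 lower (22.2%, 33.3% and 33.3%, against 15.7%, 15.6% and 20.3%). The receptor subunit genes nAChRalpha6 and nAChRalpha3 fell in all knockdowns, from 31.2 to 6.96, 10.1 and 9.39 CPM and from 8.49 to 3.48, 3.85 and 3.48 CPM, and nAChRalpha5 and nAChRalpha4 rose in the BEAF-32 knockdown, from 34.1 to 111 CPM (adjusted p = 0.029) and from 0.838 to 1.67 CPM (0.036). Most of the nAChRalpha5 mean came from 1 library: the BEAF-32 knockdown libraries had 43.5, 44.76 and 246.1 CPM, and without replicate 3 the mean was 44.1 CPM (log2 0.38, adjusted p = 0.00117). In that fit nAChRalpha5 was called higher in both double knockdowns too, at 48.8 CPM (log2 0.52, adjusted p = 5.34e-07) and 71.6 CPM (log2 1.07, adjusted p = 2.2e-17). Its call in the BEAF-32 knockdown was lost without any 1 of the WT libraries (adjusted p up to 0.089), that of nAChRalpha4 without any 1 of the 6 libraries compared (up to 0.0985), and that of nAChRalpha3 in the Cp190 Chro double knockdown without WT replicate 3 (0.0548). None of 7 GABA genes passed edgeR's test in any knockdown, with 0, 3 and 2 at an unadjusted p under 0.05 and 0 called by DESeq2. The fit without BEAF-32 RNAi replicate 3 called 1, 2 and 3 of them higher and 2, 1 and 1 lower. Over all 10395 genes tested in that fit, 2415, 3034 and 3199 were higher and 2381, 2947 and 3149 lower. Of 11 glutamate genes 2, 1 and 1 were higher and 2, 1 and 1 lower with all libraries (18.2%, 9.09% and 9.09% in each direction). The shares of all genes were then 18.5%, 17.9% and 21.5% higher and 15.7%, 15.6% and 20.3% lower. Eaat1, a glutamate transporter gene of glia, fell from 25.7 to 8.24, 9.36 and 12 CPM, Gs1 fell in the BEAF-32 knockdown from 172 to 135 CPM, Nmdar2 rose from 0.0626 to 0.758 CPM in the BEAF-32 knockdown and 0.40 in the Cp190 Chro double knockdown, and CG3822 rose in the BEAF-32 knockdown from 0.089 to 1.06 CPM. The call of Nmdar2 in the Cp190 Chro double knockdown was lost in 6 of 12 fits without 1 library (adjusted p up to 0.116), and that of CG3822 in 2 of 12, without WT replicate 1 or 3 (up to 0.0591). Gs1, in the fit without BEAF-32 RNAi replicate 3, was called lower in the BEAF-32 Dref double knockdown too (log2 -0.13, adjusted p = 0.0386).

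Of 12 tested monoamine genes 3, 2 and 2 were higher (25%, 16.7% and 16.7%, against 18.5%, 17.9% and 21.5% of all genes) and 1 was lower in each knockdown (8.33%, against 15.7%, 15.6% and 20.3%). Ddc, which makes dopamine and serotonin, rose from 0.625 to 3.02, 1.96 and 1.96 CPM, Pu, which starts the synthesis of their cofactor, rose from 0.0626 to 1.15, 1.39 and 1.08 CPM, and the dopamine transporter gene DAT fell from 17.2 to 2.74, 9.04 and 6.85 CPM. Of 17 tested neuropeptide genes 4, 5 and 5 were higher (23.5%, 29.4% and 29.4%, against 18.5%, 17.9% and 21.5% of all genes) and 1, 0 and 2 lower (5.88%, 0% and 11.8%, against 15.7%, 15.6% and 20.3%). They included dimm, a transcription factor gene of peptidergic neurons, which rose from 0.0584 to 2.81, 1.12 and 2.34 CPM, and the hormone gene Dh31, which rose from 0.0626 to 0.449, 0.659 and 0.895 CPM. Pal1 and Pal2, genes of peptide amidation, fell in the BEAF-32 Dref double knockdown from 95 to 71.8 CPM and from 4.87 to 2.41 CPM, and Pal1 in the BEAF-32 knockdown also, to 72.8 CPM. Dh31 rested on 1, 4 and 6 reads in the BEAF-32 knockdown, where its call was lost in 11 of 12 fits without 1 library; without replicate 3 its mean was 0.247 CPM (log2 1.87, adjusted p = 0.212). The calls of Ddc in both double knockdowns were each lost in 2 of 12 fits (adjusted p up to 0.0611), that of Dh31 in the Cp190 Chro double knockdown without WT replicate 3 (0.0506), that of Pal2 in 4 of 12 (up to 0.0804), and that of Pal1 in the BEAF-32 knockdown in 2 of 12 (up to 0.0714) and in the BEAF-32 Dref double knockdown without its replicate 3 (0.0538). Pal2, in the fit without BEAF-32 RNAi replicate 3, was called lower in the BEAF-32 knockdown (adjusted p = 0.0107) and the Cp190 Chro double knockdown (0.0267) too, and Pal1 in the latter (9.8e-05). The 4 genes named here that rose thus began from under 1 CPM in WT.

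Markers of other cell types were called in both directions, against 18.5%, 17.9% and 21.5% of all genes higher and 15.7%, 15.6% and 20.3% lower. The summed level of the 9 neuron markers was 141 to 148 CPM in WT, 133 to 185 in the BEAF-32 knockdown, 189 to 200.2 in the Cp190 Chro double knockdown and 194 to 207 in the BEAF-32 Dref double knockdown, and 3 of 8 tested markers were called higher in each double knockdown. Nearly all of the WT sum was elav at 77.5 CPM and Syx1A at 63.5 CPM. Glia markers summed to 635 to 654 CPM in WT and to 767 to 917 CPM in knockdown libraries, with 3, 3 and 4 of 11 called higher and 1 lower in each knockdown. The lower one was Eaat1. Hemocyte markers summed to 1586 to 1608 CPM in WT and 1254 to 1412 CPM in knockdowns, while 3, 1 and 0 of 8 were called higher and 0, 0 and 1 lower. Neuroblast markers summed to 92.1 to 98.4 CPM in WT, 81.9 to 98.1 CPM in the BEAF-32 knockdown and 63.8 to 72.9 CPM in the double knockdowns. Nearly all of that WT sum was CycE at 53.7 CPM and mira at 37.4 CPM. Of 7 tested neuroblast markers, 3, 2 and 2 were called higher, among them insc, from 2.27 CPM to 32.9, 12.7 and 19.6 CPM, and klu, from 0.337 to 2.1, 2.25 and 1.93 CPM, and 1 was called lower in each knockdown: mira, which segregates fate determinants in neuroblasts, went from 37.4 CPM in WT to 2.93, 2.94 and 1.91 CPM. The BEAF-32 knockdown libraries had 15.9 to 66.1 CPM of insc, so that mean rested largely on 1 library. Germline markers were called higher in 6, 5 and 6 of 7 cases. Of 9 tested muscle markers 3, 4 and 4 were called higher and 1 lower in each knockdown. The sarcomere genes sls and bt rose from 18 to 63.6, 85.3 and 67.9 CPM and from 0.722 to 8.9, 7.73 and 11.3 CPM. Their BEAF-32 knockdown libraries spread widely, at 33.2 to 120.3 CPM for sls and 3.78 to 16.8 CPM for bt. The muscle sum was 339.8 to 348 CPM in WT, 375 to 400.1 CPM and 342 to 381 CPM in the double knockdowns, and 303 to 910.4 CPM in the BEAF-32 knockdown, the highest being BEAF-32 RNAi replicate 3. Fits without that library were chosen after seeing the data. In them 5, 6 and 6 of 10 glia markers were higher and 3, 2 and 1 lower. Of 9 muscle markers, 3, 4 and 5 were higher and 2, 1 and 2 lower. Over all 10395 genes tested in that fit, 2415, 3034 and 3199 were higher and 2381, 2947 and 3149 lower. The part of the marker changes in those of elav, futsch and cac was not tested.

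The patterns of elav, futsch, para and cac over the 12 libraries were set beside those of all genes of at least 1 CPM on average, as Pearson correlations of log2(CPM + 0.5) given as a description, since the libraries fall into 4 groups. The nearest patterns to elav were those of CG15211 (r = 0.972) and gbb (0.971), a BMP ligand gene, and those nearest to futsch were CR43470 (0.975) and ZnT41F (0.972), a zinc transporter gene. For cac they were hts (0.992), an adducin gene, and mus101 (0.992), a DNA repair gene, and for para Plc21C (0.92), a phospholipase C gene, and CG31525 (0.92). The level of CG15211 in WT was 2.86 ± 0.739 CPM (SD, n = 3), against 30.3 ± 3.36 in the Cp190 Chro double knockdown, and that of mus101 was 66.3 ± 0.652 CPM against 34.8 ± 3.8. These correlations include BEAF-32 RNAi replicate 3. Within the BEAF-32 knockdown, CG15211 ran from 1.38 to 39.8 CPM, gbb from 149 to 208, hts from 289.8 to 457 and mus101 from 12.8 to 44.6. The part of that library in the correlations was not tested.

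The 10 genes were last placed in the TAD and loop lists, of which each knockdown has 1 without replicates, besides a stricter TAD list, so that nothing was tested, and lists of WT cells were not used here. No gene had a loop anchor within the 1000 bases upstream of its start site in the 787 to 2154 loops of the 3 lists. The start site of elav lay in a TAD of 7.4 kb in the BEAF-32 knockdown, 0.48 kb from a border that falls inside the gene, in a TAD of 102.6 kb in the Cp190 Chro double knockdown and in one of 228.2 kb in the BEAF-32 Dref double knockdown. For futsch the TADs were 84.0, 84.0 and 82.5 kb long with a border 8.47 to 9.99 kb from the start site. In the stricter lists these lengths were 251.2, 102.6 and 849.8 kb for elav and 234.7, 427.5 and 1786.4 kb for futsch, so they depend on the list. The TADs of cac were 214.2, 245.3 and 383.2 kb long, and its start site was 45.25, 93.42 and 167.17 kb from the nearest border. Across the 10 genes the distance to the nearest border ran from 0.48 to 45.25 kb in the BEAF-32 knockdown, 5 to 93.42 kb in the Cp190 Chro double knockdown and 2.6 to 200.49 kb in the BEAF-32 Dref double knockdown.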

How the data were processed

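Poly(A) RNA was sequenced, and the authors' chain was trimming by Trimmomatic 0.39, alignment to dm6 by TopHat2 2.1.2 over Bowtie2 2.3.4.1, removal of duplicates by Picard and counting in genes by HTSeq. The values used here are the raw counts per gene that the authors deposited. The 4 groups of 3 libraries follow the labels. Reads outside any gene (39.4 to 44.1% of those counted), without a unique alignment (16.0 to 29.5%) or in more than 1 gene (0.486 to 0.598%) were left out of library totals. The sources used here do not give the strand of the kit. TAD and loop positions, deposited by the authors from Hi-C replicates that had been pooled, served as given. Of 16727 genes, 12512 matched the Ensembl 115 annotation of dm6 by symbol and 3996 by a synonym.

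edgeR 4.0.16 in R 4.3.3 was fitted to all 12 libraries with TMM scaling. Genes entered if their counts summed to at least 10, which left 10545, and were tested by quasi-likelihood with Benjamini-Hochberg adjustment across all of them at 0.05. A standard error is the size of the log2 change divided by the root of F, and intervals use the t distribution. The fit was tested on simulated data. Poisson intervals and floors cover counting error only. Python 3.11.15 with pandas 2.3.3, numpy 2.4.6 and matplotlib 3.10.9 served for positions, motifs and figures.

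All 10 genes are named, as are, from each of 12 wider neuronal lists, up to 2 genes per direction with the smallest p among those called against WT, genes that share exons with the 10, and the 2 genes most correlated with each of the 10 that averaged at least 1 CPM. Genes and lists were chosen with earlier results of these data known. Alternatives were DESeq2 1.42.0, RLE size factors, other filters, fits of only the libraries compared, a replicate block and leaving out each library. For the named wider genes the latter was added after the data were seen, as were the list counts without BEAF-32 RNAi replicate 3.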

Additional observations from a re-analysis of the deposited data

How the results depend on the processing

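The counts of the 10 genes called against WT were recomputed with DESeq2, RLE size factors, a filter of 1 count in total, filterByExpr, only the libraries compared, a replicate block and without each library in turn. In the BEAF-32 knockdown 2 genes were higher and 1 lower, and the exceptions were filterByExpr, which left 1 gene higher because it removes Cha from the test, and the fit of only the libraries compared, which left 0 lower because cac had an adjusted p of 0.101. In the Cp190 Chro double knockdown, leaving out 1 library gave 1 to 2 genes higher and 0 to 1 lower, through elav and cac. In the BEAF-32 Dref double knockdown the counts were 2 higher and 1 lower under every alternative, and without 1 library they were 2 to 2 and 1 to 1, as they were in the BEAF-32 knockdown. The replicate numbers of the labels did not pair the libraries (the correlation of deviations between same-numbered libraries was at most 0.0493, and 0 of 18 pairs were over 0.1), and a replicate block gave 2 higher and 1 lower in each comparison and changed no call of the 10 genes against WT. No gene that was called changed direction under any of these alternatives.

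The wider neuronal genes called higher were 36, 45 and 44 with DESeq2 and 41, 62 and 64 without BEAF-32 RNAi replicate 3, against 38, 43 and 44, and those called lower were 29, 27 and 32 and then 39, 36 and 40, against 28, 24 and 32. Over all genes, the fit of only the libraries compared called 797 higher and 682 lower in the BEAF-32 knockdown (1952 and 1659 with all libraries) and 2977 and 2941 in the Cp190 Chro double knockdown (1890 and 1648). The fit without BEAF-32 RNAi replicate 3 called 2415, 3034 and 3199 of 10395 genes higher and 2381, 2947 and 3149 lower. DESeq2 called 2196, 2075 and 2455 of 10545 genes higher and 1663, 1839 and 2160 lower. With all libraries edgeR called 1952, 1890 and 2271 of 10545 genes higher and 1659, 1648 and 2141 lower. The call of Cha rests on 14 reads, and changes of fne, Syt1, brp, VGlut and Rdl are limited by depth, at 12, 68, 47, 5 and 5 reads over the 12 libraries.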
